A study of Mus musculus with 8 samples.

Results

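The Hox genes are homeobox transcription factors that lie in 4 clusters, and every gene whose symbol names a cluster (Hoxa to Hoxd) and a paralog number was taken, 39 of 24346 gene symbols. Their expression was followed in RNA-seq libraries of mouse uterine epithelium, 5 from Smad2/3 conditional knockouts (Smad2 flox/flox; Smad3 flox/flox; Pgr-cre, called cKO below) and 3 from controls, all on a mixed C57BL/6/129S6/SvEv background. SMAD2 and SMAD3 carry signals of TGF-beta and activin receptors to the nucleus. The deleted segments were exons 9 to 10 of Smad2 and exons 2 to 3 of Smad3, and the Cre recombinase was produced from the progesterone receptor locus, which the labels describe as active after birth in uterus, ovary, oviduct, mammary gland and pituitary. What alleles the controls carried, how old the mice were, their cycle stage and how epithelium was separated from the rest of the uterus: none of these is given in the labels. The labels do not say that the libraries came from separate mice, so p-values measure the spread between libraries, which may be technical. By their titles, 6 libraries share a number series, and cKO 1 and cKO 2 carry a different one.

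Within a cluster, Hox genes are ordered along the chromosome by paralog number, and low numbers tend to be used earlier and further forward in the embryo than high ones. In the developing Müllerian duct, genes of the paralog groups 9 to 13 are known for dividing the tract into oviduct, uterus, cervix and vagina, with Hoxa10 and Hoxa11 needed for the uterus. In the adult mouse uterus Hoxa10 and Hoxa11 are known mainly for their action in the stroma. Pgr-cre also acts in stroma and muscle, and in bulk RNA fewer cells of a type and less RNA per cell cannot be told apart.

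Values are FPKM, fragments normalised by the authors to transcript length and to the mapped fragments of the library, summed over the transcripts of a gene and put on 1 scale across libraries (scaled FPKM), which allows levels to be set side by side between genes. The libraries held an estimated 44.2 to 55.5 M mapped fragments. In the check of the labels, Smad2 averaged 3.58 ± 0.378 scaled FPKM in cKO and 6.07 ± 0.342 in control (limma adjusted p = 0.0055), whereas Smad3 averaged 30.7 ± 8.97 in cKO and 28.2 ± 3.07 in control (adjusted p = 0.837). The gene-level values of both Smad2 and Smad3 also count exons that were not deleted, so neither measures the deletion itself. Smad2 was lower in every cKO library than in any control library, and Smad3 overlapped between the groups. Epithelial markers were abundant in both groups, with Epcam at 455 ± 58.3 in cKO and 478 ± 12.7 in control, and all 16 of 16 listed epithelial markers entered the test.

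The Hox message of these libraries came almost wholly from the Hoxb cluster on chromosome 11. Summed over the cluster, Hoxb reached 201.7, 206.2, 185.7, 159.8 and 202.9 scaled FPKM in cKO 1 to 5, against 124, 146.1 and 134.2 in control 1 to 3. The cKO libraries all lay above the control libraries, with means of 191.3 ± 19.3 in cKO (SD, n = 5) and 134.8 ± 11.1 in control (SD, n = 3), a ratio of 1.42 (1.22 with TPM). Hoxb made up 96.9% to 98.9% of all Hox FPKM in cKO and 93.0% to 97.8% in control. The other 29 genes were low: 26 of them stayed under 1 scaled FPKM in every library, and Hoxa10, Hoxa11 and Hoxd10 reached 1 in at least 1 library.

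A gene entered the test with at least 1 scaled FPKM in at least 3 libraries, and 8 Hox genes did, Hoxb2 to Hoxb9. Of these, 7 were above 1 in every library, and Hoxb9 fell below it in control 1 only. With limma and an adjusted p below 0.05, 4 of the 8 were called higher in cKO (Hoxb2, Hoxb5, Hoxb6 and Hoxb9), against 7.27% of all 11315 genes tested, and 0 of the 8 were called lower, against 6.98% of all genes. All 8 log2 fold changes were positive, except that with TPM, which moved the median of all genes to -0.20, Hoxb3 had -0.00093 and Hoxb8 -0.094. By unadjusted p, 5 were under 0.05, as were 31.5% of all genes tested. The median log2 fold change of the 8 was 0.56, beside -0.0050 for all genes tested. In 5 of the 8 every cKO library lay above every control library, as did 11.7% of all genes tested.

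The 250 bases upstream of 1 transcript start per gene (GRCm38.p6, plus strand) are shown for the Hoxb genes that the promoter table holds. These are Hoxb8 (chr11:96281655-96281904), Hoxb4 (chr11:96318017-96318266) and Hoxb1 (chr11:96365508-96365757). The RefSeq gene spans of Hoxb8 and Hoxb1 start further upstream, at 96279401 and 96365746, so the Hoxb8 window lies inside its gene span. The windows are given because SMAD proteins bind short CAGAC elements and because these 3 genes differ in what was measured below. Capitals mark CAGAC.
Hoxb8: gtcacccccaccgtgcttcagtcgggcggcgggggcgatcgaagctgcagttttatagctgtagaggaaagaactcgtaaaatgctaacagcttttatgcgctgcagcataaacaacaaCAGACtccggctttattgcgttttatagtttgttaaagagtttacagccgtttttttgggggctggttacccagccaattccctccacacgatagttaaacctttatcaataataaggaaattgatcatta
Hoxb4: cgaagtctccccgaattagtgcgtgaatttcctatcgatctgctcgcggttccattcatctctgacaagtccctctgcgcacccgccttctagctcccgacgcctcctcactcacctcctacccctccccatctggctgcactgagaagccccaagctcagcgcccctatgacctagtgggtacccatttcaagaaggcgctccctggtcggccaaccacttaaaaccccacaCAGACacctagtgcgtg
Hoxb1: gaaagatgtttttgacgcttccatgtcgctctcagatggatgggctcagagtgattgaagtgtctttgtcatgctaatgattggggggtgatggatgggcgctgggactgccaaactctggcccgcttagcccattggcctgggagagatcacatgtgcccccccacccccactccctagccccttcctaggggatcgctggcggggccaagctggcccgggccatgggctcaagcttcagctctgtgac
Searched on both strands (CAGAC or GTCTG), the element occurred 1 time upstream of Hoxb8 and 1 time upstream of Hoxb4, and it has no match in the Hoxb1 window. It occurred in 42.2% of 32851 promoters of that length and upstream of 7 of the 22 Hox genes in the table. The GC-rich SMAD element GGCGCC had no match in the 3 windows and occurred in 9.59% of promoters. TGATNNAT (reverse strand ATNNATCA), a form of the site shared by Hox and Pbx proteins, had 1 match each upstream of Hoxb8 and Hoxb1 and none upstream of Hoxb4, and occurred in 7.68% of promoters. The E-box CANNTG had 3 matches upstream of Hoxb1, 1 upstream of Hoxb4 and none upstream of Hoxb8, and occurred in 66.2% of promoters. A match is a description of these letters, not a bound site.

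Hoxb9 (chromosome 11, 96271330 to 96276593, mm10) showed the highest ratio of the 8. This gene is the most 5′ of the series Hoxb1 to Hoxb9 and is known with its paralogs Hoxa9 and Hoxd9 for a shared role in mammary gland development in the mouse. It measured 5.61, 3.98, 8.62, 4.75 and 7.39 scaled FPKM in cKO 1 to 5, against 0.703, 1.41 and 1.61 in control 1 to 3. All 5 cKO libraries stood above all 3 control libraries. The means were 6.07 ± 1.91 in cKO and 1.24 ± 0.477 in control, a ratio of 4.89, and the log2 fold change was 1.64 ± 0.24 (SE; adjusted p = 0.00398 in limma). It rested on 96.2 to 1071 fragments per library, as the width of the deposited FPKM interval implies. The call held in each of the 23 alternative settings.

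Its neighbours Hoxb8 and Hoxb7 were among the most abundant and were not called. Hoxb8 (96281905 to 96285325), with roles in the nervous system and in blood cells of the mouse, measured 24.6, 26.1, 29.0, 22.02 and 30.5 scaled FPKM in cKO 1 to 5, against 21.4, 28.1 and 23.9 in control 1 to 3. These groups overlapped, and the log2 fold change was 0.11 ± 0.13 with a 95% interval of -0.19 to 0.40 (limma adjusted p = 0.601). Hoxb7 (96286646 to 96290163), long used as a marker of the Wolffian duct and ureteric bud, measured 39.6, 38.8, 40.4, 36.4 and 45.4 in cKO 1 to 5, against 31.5, 37.6 and 34.6 in control 1 to 3. Only the lowest cKO library overlapped the controls, and the log2 fold change was 0.21 ± 0.10 with an interval of -0.015 to 0.44 (adjusted p = 0.182). Both intervals lie below that of Hoxb9, which ran from 1.10 to 2.18.

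Hoxb6 and Hoxb5, the middle of the cluster, rose. Hoxb6 (96299171 to 96301569) was the most abundant Hox gene of both groups and measured 69.2, 68.4, 51.8, 52.0 and 62.3 scaled FPKM in cKO 1 to 5, against 38.7, 40.2 and 37.4 in control 1 to 3. Every cKO library was above every control library, and the control values lay close together. The means were 60.7 ± 8.51 in cKO and 38.8 ± 1.39 in control, and the log2 fold change was 0.62 ± 0.12 (adjusted p = 0.0141 in limma). The call was lost without control 2 (adjusted p = 0.0651) or without control 3 (adjusted p = 0.0748).

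Hoxb5 (96303512 to 96306121), a gene known for its part in enteric nervous system and vessel development, measured 15.1, 14.9, 11.5, 9.07 and 14.2 scaled FPKM in cKO 1 to 5, against 6.43, 8.61 and 7.65 in control 1 to 3. The groups did not overlap, although the lowest cKO library came close to the highest control library. The means were 12.95 ± 2.60 in cKO and 7.57 ± 1.09 in control, and the log2 fold change was 0.69 ± 0.17 (adjusted p = 0.0308 in limma). This call was the least firm of the 4, since it was lost in 11 of the 23 alternatives, among them each in which 1 control library was left out (adjusted p of 0.0998, 0.0810 and 0.105 without control 1, 2 and 3). The noncoding transcript Hoxb5os overlaps both Hoxb5 and Hoxb6; it averaged 2.31 ± 0.553 in cKO and 1.34 ± 0.359 in control (adjusted p = 0.0931). Whether the authors' counting used strand is not stated, so reads of the overlap cannot be told apart.

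Hoxb4 (96318267 to 96321638), best known for its effect on blood stem cells, measured 12.5, 16.3, 10.7, 10.3 and 10.5 scaled FPKM in cKO 1 to 5, against 8.07, 8.46 and 7.83 in control 1 to 3. The groups did not overlap, but the log2 fold change of 0.50 ± 0.15 did not pass the threshold (limma adjusted p = 0.0531). It passed in 4 of the 23 alternatives, for example without cKO 2 (log2 fold change 0.39, adjusted p = 0.0346). Hoxb3 (96323126 to 96347930) measured 11.1, 19.3, 14.7, 11.7 and 14.3 in cKO 1 to 5, against 10.3, 12.2 and 14.1 in control 1 to 3. Its groups overlapped, and the log2 fold change was 0.19 ± 0.18 with a 95% interval of -0.21 to 0.59 (adjusted p = 0.478).

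Hoxb3 is the only tested Hox gene with more than 1 transcript in the tables. The transcript of 3390 bases, which starts at the 5′ end of the locus, averaged 8.90 ± 2.10 scaled FPKM in cKO and 7.87 ± 0.831 in control. The transcript of 3313 bases, which starts at position 96343769, averaged 5.35 ± 1.41 in cKO and 4.35 ± 1.25 in control. The first took 57.9% to 69.0% of the gene's FPKM in cKO and 59.0% to 68.6% in control, so its share overlapped between the groups.

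Hoxb2 (96351632 to 96354014), a gene known from hindbrain segmentation, stood out among the low-numbered members. It measured 23.6, 18.2, 18.8, 13.3 and 18.0 scaled FPKM in cKO 1 to 5, against 6.72, 9.51 and 7.14 in control 1 to 3. The lowest cKO library was above the highest control library. The means were 18.4 ± 3.64 in cKO and 7.79 ± 1.51 in control, a ratio of 2.36, and the log2 fold change was 1.13 ± 0.17 (adjusted p = 0.00497 in limma). The call held in each of the 23 alternatives. By mean level Hoxb2 ranked 4 in cKO and 6 among the Hox genes in control.

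**Figure D1:**
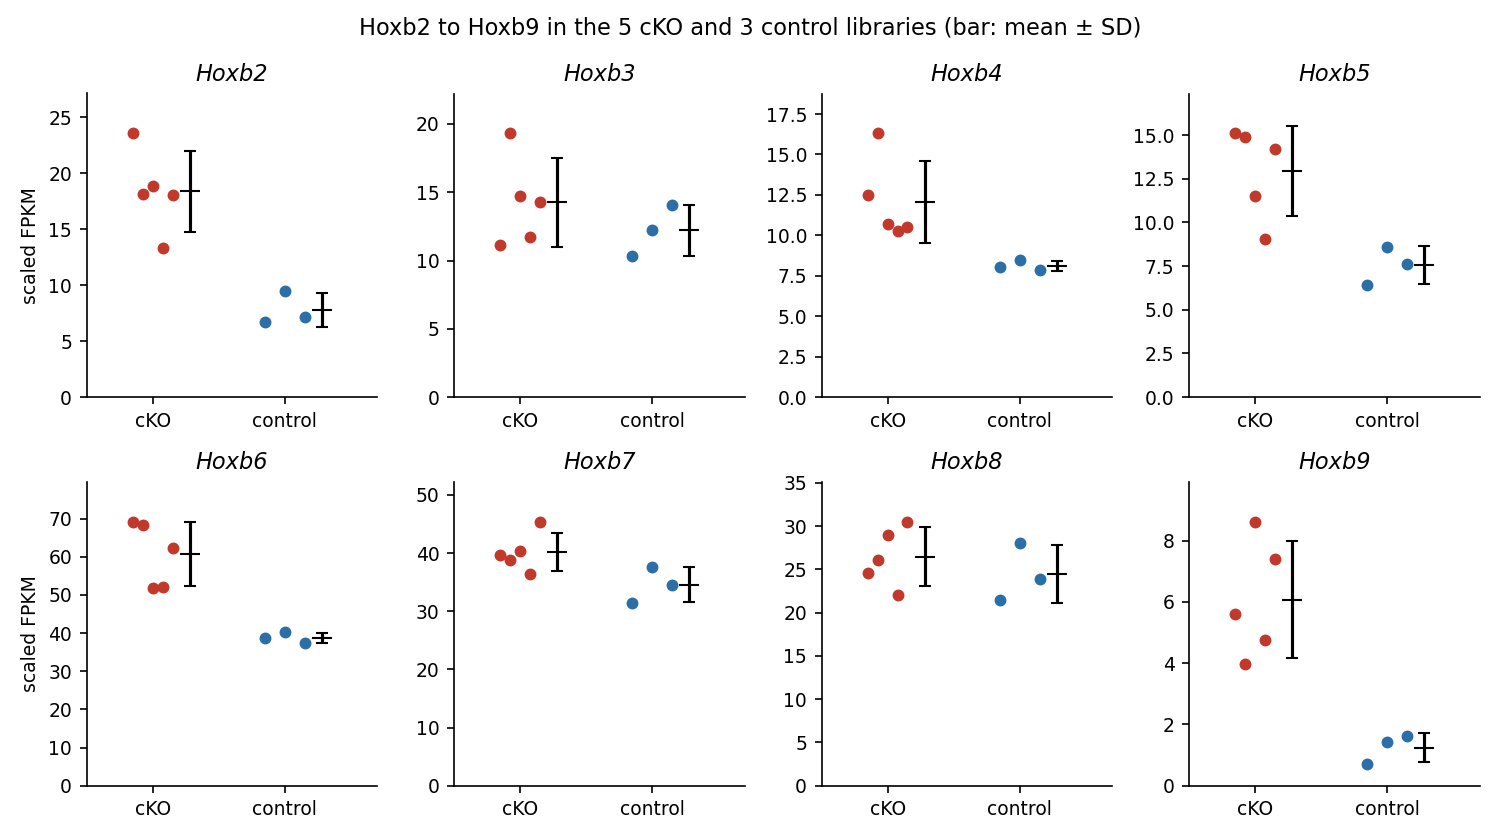
Scaled FPKM of Hoxb2 to Hoxb9, 1 panel per gene with its own axis from 0, 1 point per library, cKO left of control, and bars for mean ± SD. Hoxb9, Hoxb6, Hoxb5, Hoxb4 and Hoxb2 have no overlap between the groups, while Hoxb8, Hoxb7 and Hoxb3 overlap.

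Hoxb1 lay below the filter and was not tested. It measured 0.323, 0.248, 0.0952, 0.131 and 0.133 scaled FPKM in cKO 1 to 5, against 0.0384, 0.0347 and 0.0432 in control 1 to 3. The groups did not overlap, and the values rested on 9 to 33.4 implied fragments per cKO library and 4.0 to 5 per control library. The 2 highest values were those of cKO 1 and cKO 2. Hoxb13, at the other end of the cluster beyond a gap, was listed at 0 in all 8 libraries.

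The size of the difference did not follow gene order along the cluster. Measured from the end of Hoxb1, the starts of Hoxb2 and Hoxb9 lie at 16.6 and 96.9 kb and carried log2 fold changes of 1.13 and 1.64. Between them, Hoxb3 at 45.1 kb had 0.19 and Hoxb4 at 50.0 kb had 0.50. Hoxb5 at 64.7 kb and Hoxb6 at 69.1 kb had 0.69 and 0.62, and Hoxb7 at 81.6 kb and Hoxb8 at 86.4 kb had 0.21 and 0.11. The difference between neighbouring genes was not itself tested.

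**Figure D2:**
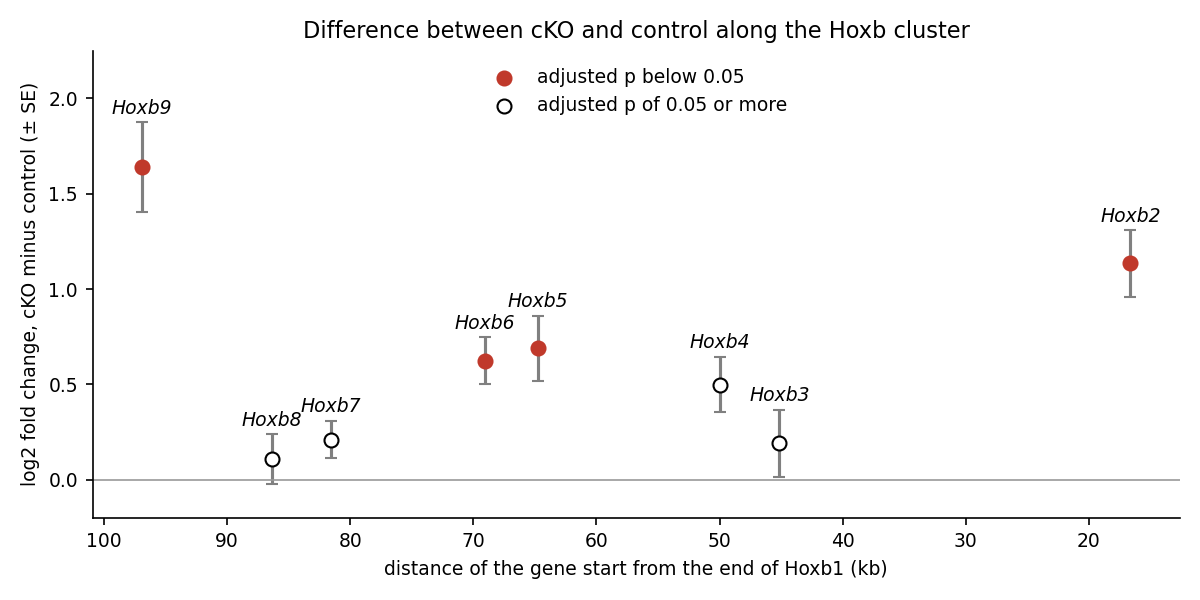
Log2 fold change of scaled FPKM, cKO minus control (± SE of the limma fit), of Hoxb2 to Hoxb9 against the distance of each gene's start from the end of Hoxb1 in kb; filled points have an adjusted p below 0.05. Hoxb9 at 96.9 kb and Hoxb2 at 16.6 kb are highest, and Hoxb8, Hoxb7 and Hoxb3 are lowest.

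The make-up of the Hoxb message differed between the groups. Hoxb9 took 1.93% to 4.64% of the summed Hoxb FPKM in cKO and 0.567% to 1.20% in control, and Hoxb2 took 8.35% to 11.7% in cKO and 5.32% to 6.51% in control. Hoxb7 took 18.8% to 22.8% in cKO and 25.4% to 25.8% in control, and Hoxb8 took 12.2% to 15.6% in cKO and 17.3% to 19.2% in control. The shares of Hoxb9 and Hoxb2 were thus higher in every cKO library than in any control library, and those of Hoxb7 and Hoxb8 lower, while the FPKM of Hoxb7 and Hoxb8 overlapped. Hoxb6 held the first place in every library, with a mean share of 31.7% in cKO and 28.9% in control. In control, Hoxb4, Hoxb2 and Hoxb5 followed each other at 8.12, 7.79 and 7.57 scaled FPKM, closer than their spread.

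**Figure D3:**
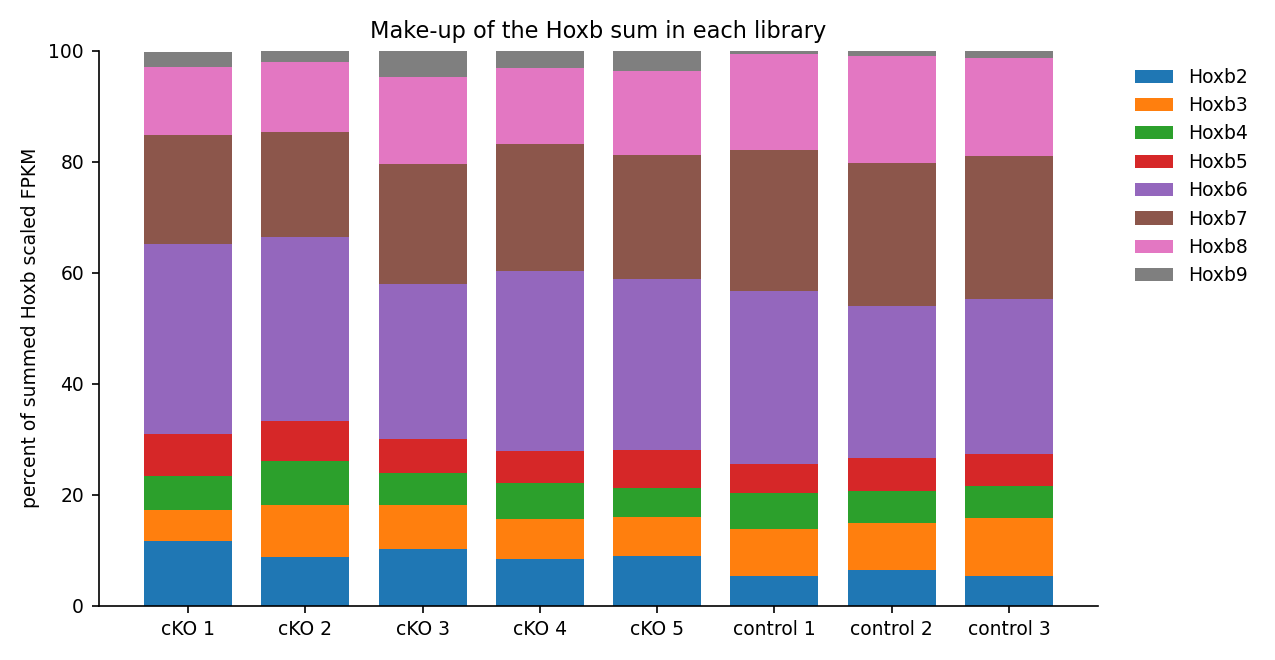
Share (percent) of the summed Hoxb scaled FPKM taken by each gene, 1 stacked bar per library from 0 to 100, with cKO 1 to 5 left of control 1 to 3. Hoxb6 takes the most in each library; Hoxb2 takes 8.35% to 11.7% in cKO and 5.32% to 6.51% in control.

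Within the 6 libraries of 1 title number series (cKO 3 to 5 and control 1 to 3), the log2 fold changes were 1.81 for Hoxb9 (limma adjusted p = 0.0119), 1.01 for Hoxb2 (0.0213), 0.50 for Hoxb6 (0.0337), 0.54 for Hoxb5 (0.0957) and 0.34 for Hoxb4 (0.0426). Hoxb5 was not called there and Hoxb4 was, so 4 of the 8 Hox genes tested were called higher. Among all 11166 genes tested in these libraries, 718 were called higher. The 6 libraries are part of the same 8, so this is not a separate check. The other number series holds only cKO libraries and gives no value of its own.

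The posterior genes best known from the uterus were low in both groups. Hoxa10 measured 0.776, 0.228, 1.12, 0.430 and 0.561 scaled FPKM in cKO 1 to 5, against 3.01, 0.493 and 0.918 in control 1 to 3. Hoxa11 measured 0.573, 0.0711, 0.748, 0.220 and 0.196 in cKO 1 to 5, against 1.28, 0.258 and 0.542 in control 1 to 3. Hoxd10 measured 0.506, 0.458, 0.588, 0.233 and 0.359 in cKO 1 to 5, against 1.33, 0.453 and 0.559 in control 1 to 3. For all 3 genes the highest value was that of control 1, and the groups overlapped. With genes of at least 0.3 scaled FPKM in 3 libraries admitted, the log2 fold changes were -0.50 ± 0.31 for Hoxa10 (limma adjusted p = 0.297), -0.29 ± 0.22 for Hoxa11 (adjusted p = 0.393) and -0.29 ± 0.16 for Hoxd10 (adjusted p = 0.261). Hoxd9 and Hoxd8, the other genes so admitted, had -0.12 ± 0.13 each (adjusted p of 0.557 and 0.563). Thus 0 of these 5 were called, 0 had an unadjusted p under 0.05, and 13.4% of all genes were called at that filter.

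A pair of transcripts of Hoxa10 were listed. The one of 2161 bases averaged 0.511 ± 0.320 scaled FPKM in cKO and 1.42 ± 1.40 in control, and the one of 2565 bases averaged 0.112 ± 0.0795 in cKO and 0.0505 ± 0.0875 in control. Hoxa9, Hoxd8 and Hoxd11 also had more than 1 transcript, each transcript below 0.5 in every library. Hoxa13, which marks the cervix and vagina in the embryo, was listed at 0 in all libraries. So were Hoxd13 and the other members of paralog group 13, Hoxc12 and Hoxd1. The highest Hoxc value was 0.411.

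The library with the highest Hoxa and Hoxd sums was also the highest in markers of stroma and muscle. The Hoxa sum was 1.60, 0.770, 2.59, 1.0003 and 0.946 scaled FPKM in cKO 1 to 5, against 5.23, 1.08 and 1.95 in control 1 to 3. The Hoxd sum was 1.46, 1.79, 2.30, 0.682 and 1.22 in cKO 1 to 5, against 3.61, 1.67 and 1.66 in control 1 to 3. The summed stromal markers, of which 13 of 16 entered the test, were 180.1, 232.3, 347.4, 168.6 and 165.7 in cKO 1 to 5, against 468.8, 293.2 and 252.6 in control 1 to 3. The summed smooth muscle markers, of which 8 of 10 entered the test, ranged over 18.2 to 130.2 in cKO and 67.2 to 387.8 in control. Control 1 was the highest library in all 4 sums, and cKO 3 was the highest cKO library in all 4. Log2 fold changes were positive for 1 of the 13 stromal markers tested and 0 of the 8 muscle markers, with medians of -0.70 and -1.05. Only Nr2f2, of the stromal list, was called lower (limma adjusted p = 0.0175), beside 6.98% of all genes tested. The sums of both lists overlapped between the groups. No marker of either list was at 0 in all libraries, and their part in the Hoxa and Hoxd sums was not tested. Without control 1 the ratio of cKO to control means was 0.912 for Hoxa and 0.896 for Hoxd, beside 0.502 and 0.645 with it.

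The Hoxb sum ran the other way in control 1, which was the lowest library for Hoxb and the highest for stroma. With the stroma and muscle level as a term of the fit, Hoxb9 and Hoxb2 were still called and Hoxb6 (log2 fold change 0.56, limma adjusted p = 0.0714) and Hoxb5 (0.57, adjusted p = 0.133) were not. Leukocyte markers were also uneven, with sums of 1313, 1238, 1940, 344.6 and 1852 scaled FPKM in cKO 1 to 5, against 339.3, 335.2 and 507.8 in control 1 to 3. Most of that sum is S100a8 and S100a9; without them it was 69.2 to 134.7 in cKO and 97.3 to 139.1 in control. Ptprc, the pan-leukocyte marker CD45, was 3.43, 10.2, 7.90, 3.02 and 5.25 in cKO 1 to 5, against 1.69, 1.55 and 2.83 in control 1 to 3, without overlap (limma adjusted p = 0.0615). Cd68, which made up most of the sum without S100a8 and S100a9, ran the other way. It averaged 68.5 ± 19.6 in cKO and 101 ± 18.9 in control, with overlap (limma adjusted p = 0.116). Lyz2 and Csf1r also overlapped, with log2 fold changes of 0.27 ± 0.34 and 0.02 ± 0.29. Of the 10 leukocyte markers 6 entered the test and 0 were called. None of the 10 was at 0 in all libraries, and the part of leukocyte markers in the Hoxb result was not tested. The Hoxc sum overlapped, with 0.364 ± 0.392 in cKO and 0.462 ± 0.0699 in control.

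**Figure D4:**
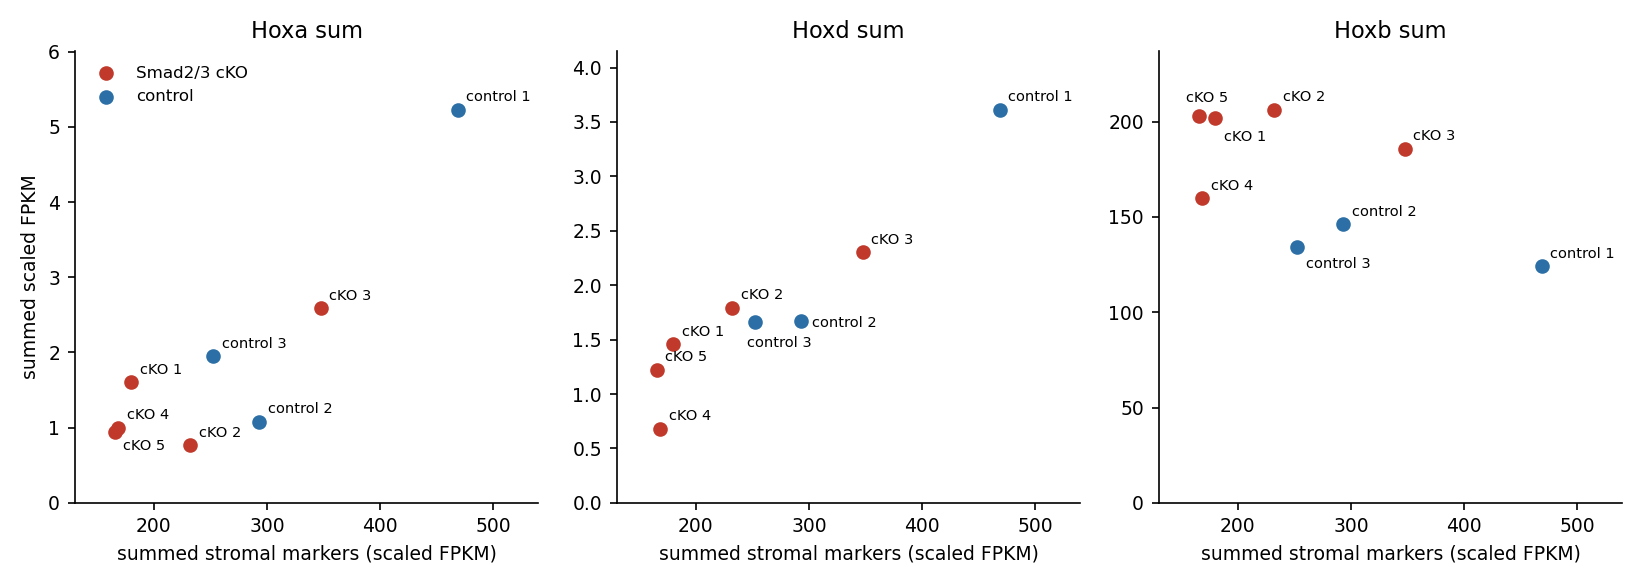
Summed scaled FPKM of the Hoxa, Hoxb and Hoxd clusters (vertical axes from 0, 1 panel each) against the summed stromal markers in scaled FPKM, 1 point per library. Control 1, at 468.8 on the stromal axis, is highest for Hoxa (5.23) and Hoxd (3.61) and lowest for Hoxb (124).

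Of the other tissues of the tract, 4 of 8 oviduct markers entered the test and 1 was called higher, Tubb4b, a tubulin of cilia that many cells also express, with 96.3 scaled FPKM in cKO and 41.9 in control (limma adjusted p = 0.00968). Foxj1, which defines ciliated cells, was at most 0.062. Of 9 squamous markers of cervix and vagina, 4 entered the test and 2 were called higher, the keratins Krt13, with 5.40 ± 3.04 in cKO and 0.361 ± 0.155 in control, and Krt15, with 2.32 in cKO and 0.511 in control (adjusted p = 0.0234 for Krt15). Of all genes tested, 7.27% were called higher. Trp63, the regulator of squamous cells, was at most 0.053. The list sums were 96.6 to 161.0 in cKO and 50.6 to 61.0 in control for oviduct, and 27.0 to 90.0 in cKO and 14.4 to 27.3 in control for cervix and vagina. Without Tubb4b, which made up most of it, the oviduct sum was 14.3 to 23.6 in cKO and 11.3 to 13.9 in control. Most of this rest was Sox17, with 12.7 ± 2.08 in cKO and 9.08 ± 0.786 in control (limma adjusted p = 0.0631). Ovgp1 reached 10.2 in cKO 2 and overlapped between the groups. Foxj1, Dnah5, Rsph1 and Wt1 had lower means in cKO than in control, all with overlap. Ccdc39 and Serpinb13 were at 0 in all libraries. Their part in the Hoxb result was not tested.

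Summed by paralog number across clusters, the levels of groups 2 to 8 were close to those of their Hoxb member. Group 9 followed Hoxb9 less closely in control, where Hoxb9 averaged 1.24, Hoxd9 0.474 and Hoxa9 0.298. In control 1, Hoxd9 (0.788) was above Hoxb9 (0.703). Group 9 summed to 6.55 ± 2.07 scaled FPKM in cKO and 2.03 ± 0.134 in control, and groups 2 and 6 summed to 18.4 and 60.9 in cKO and to 7.81 and 39.0 in control. Groups 10 and 11, which have no Hoxb member, summed to 1.11 ± 0.486 and 0.511 ± 0.335 in cKO and to 2.33 ± 1.84 and 0.924 ± 0.564 in control. The single value above 0 in group 12 was Hoxd12 in cKO 3.

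Meis and Pbx proteins, homeodomain partners that bind DNA together with Hox proteins, were measured as a list, of which 6 of 9 entered the test and 2 were called lower, against 6.98% of all genes tested. Meis1 measured 7.66, 8.64, 10.1, 7.19 and 7.07 scaled FPKM in cKO 1 to 5, against 12.7, 21.6 and 20.5 in control 1 to 3, without overlap (log2 fold change -1.05 ± 0.18, limma adjusted p = 0.00795). Of this list 0 were called higher, and the median log2 fold change was -0.33.

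Of 18 genes outside the clusters that pattern the Müllerian duct and uterus, 14 entered the test, with 1 called higher, 3 lower and a median log2 fold change of -0.25, beside 7.27% called higher and 6.98% lower among all genes tested. Foxa2, the regulator of uterine glands, averaged 5.25 ± 0.785 scaled FPKM in cKO and 0.789 ± 0.301 in control (1.81 ± 0.15, limma adjusted p = 0.000307). The distal-less homeobox pair fell, Dlx5 with 76.4 ± 5.78 in cKO and 112 ± 2.43 in control (adjusted p = 0.0072) and Dlx6 with 28.8 ± 2.65 in cKO and 41.1 ± 2.78 in control (adjusted p = 0.0143). Vangl2, a planar polarity gene, averaged 4.57 ± 0.551 in cKO and 6.63 ± 0.432 in control (adjusted p = 0.0234).

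The genes next to the clusters and their noncoding RNAs gave no call. Of 27 listed, 24 were found, 6 entered the test and 0 were called with limma, where 14.3% of all genes were called. An unadjusted p under 0.05 was seen for 3, beside 31.5% of all genes: Hoxb5os, given above, and Calcoco1 and Smug1. Both Calcoco1 (16.0 ± 2.75 in cKO, 21.3 ± 1.60 in control) and Smug1 (5.90 ± 0.756 in cKO, 7.78 ± 0.493 in control) were lower in cKO without overlap (limma adjusted p of 0.0922 and 0.0638). Skap1, beside Hoxb, was below the filter and is named after its values were seen; it measured 0.753, 0.767, 0.701, 0.181 and 1.53 scaled FPKM in cKO 1 to 5, against 0.158, 0.0839 and 0.109 in control 1 to 3, without overlap. The most abundant, Mtx2 beside Hoxd and Skap2 beside Hoxa, averaged 33.9 ± 2.51 and 29.1 ± 2.96 scaled FPKM in cKO and 31.1 ± 2.52 and 32.4 ± 1.25 in control. Hotairm1, a noncoding RNA of the Hoxa cluster, was below the filter with 0.378, 1.13, 0.909, 0.198 and 0 in cKO 1 to 5 and was listed at 0 in all 3 controls. Of 22 Polycomb and trithorax genes, which keep Hox clusters silent or active, 21 entered the test and 1 was called lower, Jarid2, with 9.47 ± 0.674 in cKO and 12.8 ± 1.36 in control (limma adjusted p = 0.0308); this is near or below the 6.98% called lower among all genes. Retinoic acid is a known inducer of 3′ Hox genes; of 17 genes of its synthesis, breakdown and receptors 11 entered the test, 0 were called and 3 had an unadjusted p under 0.05, close to the 31.5% of all genes, with a median log2 fold change of -0.46. The most abundant of them, Rdh10 and Crabp2, averaged 78.8 ± 24.8 and 22.5 ± 11.7 in cKO and 86.9 ± 4.10 and 30.2 ± 8.41 in control.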

How the data were processed

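RNA-seq of 8 libraries was used, 5 cKO and 3 control. The submitters' processing notes name TopHat, Cufflinks, bcl2fastq 1.8.3 and the mm10 build; the remaining versions, the annotation and whether strand was used: not given in the sources used here. Per the labels' protocols, cDNA was primed with random and poly-dT primers and sequenced on a HiSeq 2500. The authors deposited FPKM for 34535 transcripts per library, with a 95% interval and a status, and a coverage signal per transcript, which was used only to look at depth, per the file headers. Locus starts were moved to 1-based coordinates, after which 24 of the 39 Hox starts equalled those of RefSeq.

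FPKM was summed per symbol over all transcripts; 15 genes with a status other than OK, none of them a Hox gene, were left out. Libraries were scaled by median ratios over 9939 genes at or above 1 FPKM throughout (factors 0.924 to 1.06). Genes that reached a scaled FPKM of 1 in 3 or more libraries entered a two-sided limma fit (version 3.58.1, R 4.3.3) of log2(scaled FPKM + 1), with trended variance and no covariates, adjusted by Benjamini-Hochberg over all 11315 genes. Fold changes on this scale understate those of low genes. Sums over members were not tested. FPKM are not counts, so no count test was run; fragments per transcript were implied from the interval width, and half-widths were 3.02% to 20.4% of the value for tested Hoxb genes of 1 transcript. These intervals cover counting error only. The fit was tested on simulated data.

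Every Hox gene tested is named, with values per library for those called, not overlapping or among the 6 most abundant; of each context list, the members called or the 2 most abundant. Hoxa10, Hoxa11 and Hoxd10 per library, Tubb4b, Foxj1, Trp63, Ptprc, Skap1, Hoxb5os and Hotairm1 were added after their values were seen. So were Cd68, Lyz2, Csf1r, Calcoco1, Smug1, Sox17, Ovgp1, Dnah5, Rsph1 and Wt1. Some items are not reported here. The members and lists were chosen with earlier results of these data known. Alternatives covered scaling, pseudocount, filter, status, trend, weights, each library left out, title number series, and stroma and muscle level; 1 of the 23 was added after seeing the data (filter at 0.3 with a pseudocount of 0.1). Promoter sequences are from RefSeq, which held 22 of the Hox genes in its table.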

Additional observations from a re-analysis of the deposited data

Results flagged for a closer look

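Among 41 values checked for a cKO library far from the other 4, 5 stood apart. Chance gives about 1 in 20 for values that vary freely, a rate that does not apply to the genes below whose other 4 cKO libraries are at 0. All 5 are Hox genes close to 0. Hoxa4 reached 0.0726 scaled FPKM in cKO 2, with the next cKO library at 0.0143. Hoxc9 reached 0.0391 and Hoxc10 0.150 in cKO 3, with the next cKO libraries at 0 and 0.0565. Hoxd12 reached 0.00854 in cKO 3 and Hoxc11 0.0260 in cKO 5, each with the other 4 cKO libraries at 0. None of these genes reached the filter, and none was tested; the highest value of each rested on 1 to 13 fragments.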

How the results depend on the processing

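Hoxb2 (log2 fold change 0.99 to 1.27, adjusted p of 0.00239 to 0.0336) and Hoxb9 (1.45 to 2.22, adjusted p of 0.000863 to 0.0243) were called higher in all 23 alternatives, Hoxb6 (0.43 to 0.68) in all but 3 and Hoxb5 (0.53 to 0.80, adjusted p of 0.00893 to 0.133) in all but 11; the cause was not tested. Hoxb4 was called in 4 (adjusted p of 0.0159 to 0.205). The count of Hox genes called higher, 4, lay between 2 and 4 with 1 library left out (2 without control 2 or control 3) and was 2 with stroma and muscle level as a term. No alternative called a Hox gene lower. The count of all genes called, 1613, ranged from 419 to 1827 with 1 library left out, and was 3526 with array weights and 689 with stroma and muscle level as a term. TPM moved the median log2 fold change of all genes to -0.20 and the share of calls that were higher to 23.5%, against 51.0%; Hoxb3 then had -0.00093 and Hoxb8 -0.094, both above that median, and the Hoxb ratio was 1.22. With 1 library left out, the ratio of cKO to control sums ranged over 1.36 to 1.48 for Hoxb, 0.385 to 0.912 for Hoxa, 0.557 to 0.896 for Hoxd and 0.441 to 0.949 for Hoxc, the lowest Hoxc value without cKO 3. No paired analysis was possible because the labels give no replicate numbers shared by the groups. Below the filter, few fragments limit the values: Hoxb1 rested on 4.0 to 33.4.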

Other observations

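Cyp26a1, which breaks down retinoic acid, was below the filter and was chosen here after its values were seen. It measured 0.612, 0.869, 0.852, 0.586 and 4.62 scaled FPKM in cKO 1 to 5, and in control it was listed at 0 in controls 1 and 3 and at 0.0103 in control 2. It was not tested, and no fold is given.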
